A study of Mus musculus with 6 samples.

Results

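The genes described here are 8 transcription factors that mark excitatory (glutamatergic) neurons of the forebrain: Neurod2, Neurod6, Bhlhe22, Zbtb18, Bcl11b, Emx1, Lhx2 and Tbr1. They were chosen by name from a list of regulators of this cell class, which holds the cells that recombine in the mouse model, and all 8 were found among the 55471 genes of the count table. RNA-seq was performed on total RNA of the hippocampus of 6 mice, 3 p300-ifKO and 3 control littermates, with 1 library per mouse. A p300-ifKO mouse carries floxed Ep300, the gene of the lysine acetyltransferase p300, and Camk2a-creERT2, a tamoxifen-dependent Cre recombinase whose driver is active in excitatory forebrain neurons. After recombination these neurons make a truncated p300, while the glia, vessels and interneurons of the same tissue keep the intact gene. All 6 mice were C57BL/6, 3 to 6 months old, and had received 5 administrations of tamoxifen at 20 mg/ml in corn oil. The protocol describes the controls as littermates without creERT2, whereas the description field of each control library lists Camk2a_creERT2. The mice were males, and the labels give no batch.

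Excitatory neurons of the cortex and hippocampus arise from progenitors of the dorsal forebrain. Homeobox factors such as EMX1 and LHX2 act in the progenitors, and basic helix-loop-helix (bHLH) factors of the NEUROD family, the T-box factor TBR1 and the zinc finger proteins ZBTB18 and BCL11B act as the neurons differentiate and settle into areas and layers. Many of these genes stay on in mature neurons. The proteins p300 and CBP, encoded by Ep300 and Crebbp, are paralogous coactivators that acetylate histones at enhancers and promoters. The comparison addresses whether the mRNA of these identity factors depends on p300 in adult neurons.

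The promoter sequences of 2 of the 8 genes are shown because the results below turn on these genes: Neurod2 had the smallest p of the 8 genes, and Zbtb18 had the widest spread among p300-ifKO mice. Each is the 250 bases before the start site on the gene's own strand, 5′ to 3′, from RefSeq on GRCm38.p6, where 7 of the 8 genes had an entry and Bhlhe22 did not. The Neurod2 window is chr11:98329646-98329895 on the minus strand and the Zbtb18 window is chr1:177442101-177442350 on the plus strand. Capitals mark an E-box CAGATG, the kind of site that NEUROD factors bind, in Neurod2, and ACATCTG, the core bound by ZBTB18, in Zbtb18.
Neurod2: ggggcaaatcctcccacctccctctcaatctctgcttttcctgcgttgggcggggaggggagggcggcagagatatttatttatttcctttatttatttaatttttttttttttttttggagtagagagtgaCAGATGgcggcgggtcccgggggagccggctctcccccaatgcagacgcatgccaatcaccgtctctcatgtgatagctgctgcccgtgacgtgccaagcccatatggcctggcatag
Zbtb18: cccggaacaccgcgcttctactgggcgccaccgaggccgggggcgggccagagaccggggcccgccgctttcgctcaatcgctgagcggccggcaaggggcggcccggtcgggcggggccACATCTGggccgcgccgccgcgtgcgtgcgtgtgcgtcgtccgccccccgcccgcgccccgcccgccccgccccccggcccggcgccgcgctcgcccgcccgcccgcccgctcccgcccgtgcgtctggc
The match in Neurod2 began 118 bases before the start site. The match in Zbtb18 began 130 bases before it and overlaps an E-box CAGATG read on the other strand, as every ACATCTG does. Zbtb18 had 5 start sites on record, and the one nearest the 5′ end of the gene was used. The Zbtb18 window was 84.0% GC with 47 CpG dinucleotides, against 52.8% and 11 in Neurod2. On either strand, CAGATG occurred in 14.4% and ACATCTG in 3.71% of 32851 promoter windows of the same length. Of the other motifs searched, the homeobox core TAATTA (4.84% of windows) had 2 matches in Tbr1, 33 and 18 bases before the start site. That start site, base 61804453 of chromosome 2, lies inside the Tbr1 gene as annotated by GENCODE (61802930 to 61814114, plus strand). The T-box core GGTGTGA (3.33% of windows) and the cAMP response element TGACGTCA (1.55% of windows) had 0 matches in the 7 genes. These are matches of letters, and binding was not measured in these samples.

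The library totals ran from 23151568 to 28433823 counts per mouse. Ep300 itself, read over all its exons, had 1545, 1474 and 2334 normalized counts in the controls and 478, 1350 and 912 in the p300-ifKO mice. The groups did not overlap, and the difference was -0.97 on the log2 scale (SE 0.33, adjusted p = 0.991, DESeq2). It was called lower with 1 surrogate variable, at -0.48 (SE 0.091, adjusted p = 0.00127, DESeq2), and without p300-ifKO replicate 2, at -1.36 (SE 0.26, adjusted p = 0.000356, DESeq2). The paralog Crebbp differed by -0.055. Of 32773 genes tested, 2 had an adjusted p under 0.05, which is 0.0061%: Esr1, at 102 ± 12.5 (SD, n = 3) normalized counts in controls and 3167 ± 937 in p300-ifKO mice, and Arsi, at 30.6 ± 7.46 and 181 ± 20.1. The creERT2 protein contains part of the estrogen receptor, the product of Esr1. The paper places Arsi on the DNA construct that was used to make this driver line. The lower counts of both genes in controls go with the protocol, which describes controls without creERT2, rather than with the description field. The vesicular glutamate transporter Slc17a7, which defines forebrain excitatory neurons, had 34019.9 ± 3163 and 35806 ± 912 normalized counts, and the groups overlapped. In whole tissue, fewer cells of a type and less RNA per cell cannot be told apart.

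All 8 identity factors were measured well above the low counts at which a gene is filtered, and 0 of 8 had an adjusted p under 0.05 by DESeq2, and 0 by edgeR and by limma-voom. The adjusted p was 0.991 for 7 genes and 0.997 for Neurod6. Their log2 fold changes ran from -0.25 for Zbtb18 to 0.39 for Emx1, with 5 genes higher and 3 lower in p300-ifKO mice and a median of 0.048. Over all genes tested, 14841 lay above 0 and 17932 below, and the median was -0.046. At an unadjusted p under 0.05, 1 of 8 genes was called, Neurod2, which was higher, against 1.32% of all genes tested and 0.772% called as higher, with 0.546% called as lower.

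**Figure D1:**
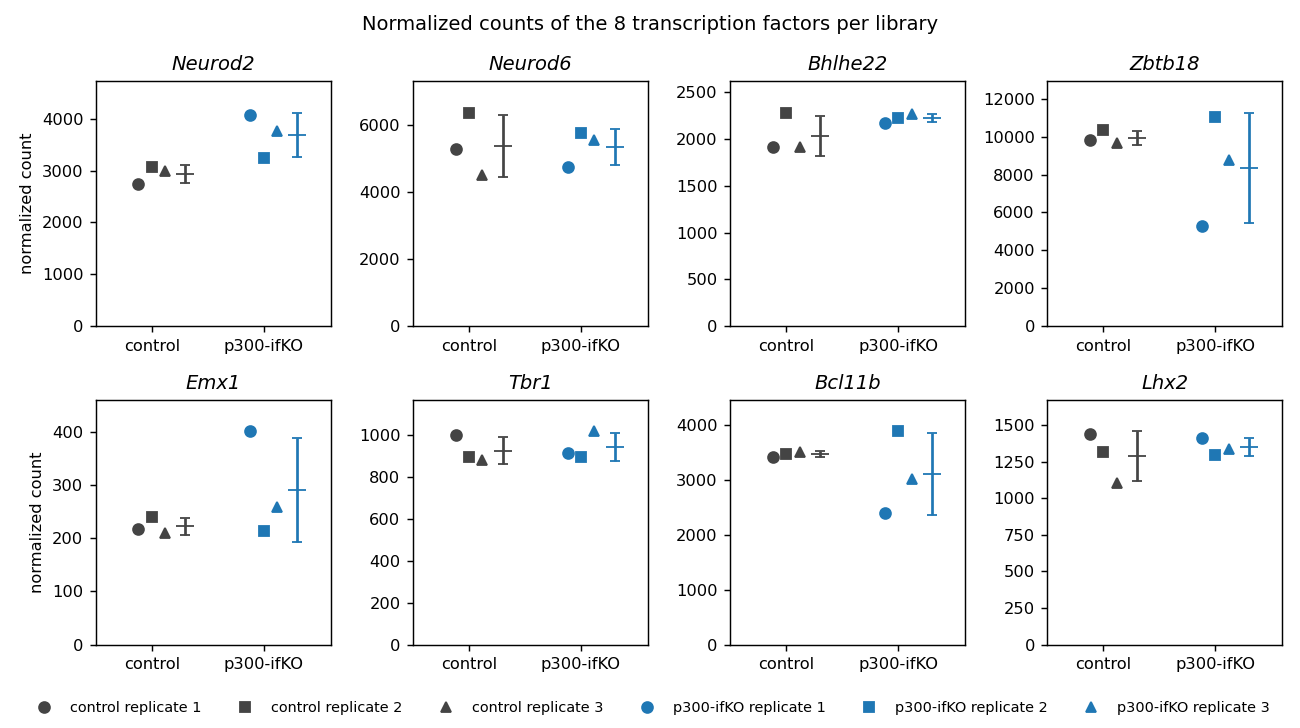
Normalized counts (y axis, linear from 0) of the 8 transcription factors in each of the 3 control (grey) and 3 p300-ifKO (blue) mice, with the mean and SD beside the points. The groups are apart only for Neurod2, and p300-ifKO replicate 1 lies far from the other 5 libraries for Zbtb18, Bcl11b and Emx1.

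Neurod2 encodes a bHLH factor of maturing and adult excitatory neurons (ENSMUSG00000038255, GRCm38 chromosome 11, 98325415 to 98329648, minus strand). It had 2742, 3062.5 and 2987 normalized counts in the controls and 4067, 3235 and 3767 in the p300-ifKO mice. Each p300-ifKO mouse was above each control, and Neurod2 was the only one of the 8 genes whose groups did not overlap. Groups of all genes tested failed to overlap in 6.64% of cases, with 3.21% higher and 3.42% lower. The means were 2931 ± 167 (SD, n = 3) and 3689.8 ± 421. The log2 fold change was 0.33 (SE 0.14, 95% interval 0.067 to 0.60, adjusted p = 0.991, DESeq2). The difference thus did not pass the test over all genes, and its interval ran from a ratio of 1.05 to 1.51.

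The size of the Neurod2 difference moved with p300-ifKO replicate 1, the highest value, and replicate 2, the lowest p300-ifKO value. It was 0.26 without replicate 1. Without replicate 2 it was 0.42 and passed the test (adjusted p = 0.0269), in a fit that called 8.43% of 11129 genes, 4.43% as higher. It was 0.22 (SE 0.10) with offsets for exonic length and GC content, where the groups still did not overlap, at 2766, 3204 and 3182 against 3586, 3416 and 3689. It was 0.23 (SE 0.087) with 1 surrogate variable, a component of variation estimated from all genes. Without replicate 1, with offsets and with the surrogate variable, Neurod2 had an unadjusted p under 0.05 but was not called after adjustment. The shares of all genes called as higher at that unadjusted p were 0.143%, 1.52% and 0.171% in these 3 fits.

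Neurod6 encodes the closest relative of NEUROD2 among the 8 and is a marker of pyramidal neurons (ENSMUSG00000037984, chromosome 6, 55677822 to 55681263, minus strand). It had 5264, 6352 and 4506 normalized counts in the controls and 4744, 5742 and 5544 in the p300-ifKO mice. The p300-ifKO values all lay between the lowest and the highest control. The difference was -0.0081 on the log2 scale (SE 0.17, 95% interval -0.33 to 0.32, adjusted p = 0.997, DESeq2). The controls of Neurod6 spread most of the 8 genes, with a coefficient of variation of 17.3%, and the sign of so small a difference turned under several alternatives.

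Bhlhe22, a gene of 1 exon, encodes a bHLH repressor that acts in the areal patterning of cortical neurons (ENSMUSG00000025128, chromosome 3, 18054174 to 18057517, plus strand). It had 1910.0, 2279 and 1913 normalized counts in the controls and 2175, 2230.4 and 2267 in the p300-ifKO mice. Control replicate 2 was the highest of the 6 libraries, so the groups overlapped. Its log2 fold change was 0.13 (SE 0.13, 95% interval -0.12 to 0.38, adjusted p = 0.991, DESeq2). The p300-ifKO mice lay close together for this gene, with a coefficient of variation of 2.09%, against 10.4% in controls. Without control replicate 2 the value was 0.22, and it was 0.087 to 0.14 without any other library.

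Zbtb18 encodes a zinc finger repressor needed for the differentiation of cortical neurons (ENSMUSG00000063659, chromosome 1, 177442351 to 177450764, plus strand). It had 9829.6, 10352 and 9649 normalized counts in the controls and 5278, 11035 and 8765 in the p300-ifKO mice. The p300-ifKO mice held both the lowest and the highest of the 6 values, and their coefficient of variation was 34.7%, against 3.67% in controls. The coefficient of variation was larger in p300-ifKO mice for 5 of the 8 genes and for 78.7% of genes with a mean normalized count of at least 100. The log2 fold change was -0.25 (SE 0.24, 95% interval -0.73 to 0.23, adjusted p = 0.991, DESeq2). It was -0.0077 without p300-ifKO replicate 1 and -0.50 without replicate 2 (adjusted p = 0.0643, DESeq2). With offsets for length and GC content it was -0.16, and with a surrogate variable 0.0053. The antisense neighbour Gm26801 overlaps Zbtb18 by 54 bases and had 15 to 22 raw counts per library, against 4914 to 12488 for Zbtb18.

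Bcl11b encodes a zinc finger protein of CA1 pyramidal and dentate granule neurons and of subcortically projecting cortical neurons (ENSMUSG00000048251, chromosome 12, 107910403 to 108003602, minus strand). It had 3417, 3477 and 3522 normalized counts in the controls and 2406, 3889.9 and 3031 in the p300-ifKO mice. As for Zbtb18, the p300-ifKO mice lay on both sides of controls that were nearly equal, with coefficients of variation of 24.0% and 1.51%. The difference was -0.16 on the log2 scale (SE 0.19, 95% interval -0.52 to 0.21, adjusted p = 0.991, DESeq2). It was -0.0061 without p300-ifKO replicate 1 and -0.35 without replicate 2 (adjusted p = 0.0792, DESeq2), and 0.033 with a surrogate variable.

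Emx1 encodes a homeobox factor of the dorsal forebrain whose regulatory sequence is widely used to mark the excitatory lineage (ENSMUSG00000033726, chromosome 6, 85187438 to 85204462, plus strand). It had 218, 239.5 and 209 normalized counts in the controls and 401, 213 and 259 in the p300-ifKO mice. The value of p300-ifKO replicate 1 stood far above the others, and replicate 2 lay within the controls. This gave a log2 fold change of 0.39 (SE 0.25, 95% interval -0.11 to 0.88, adjusted p = 0.991, DESeq2). It was 0.086 without p300-ifKO replicate 1, 0.57 without replicate 2 (adjusted p = 0.0833, DESeq2), 0.16 with offsets and 0.026 with a surrogate variable.

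Lhx2 encodes a LIM homeobox factor that specifies cortical and hippocampal progenitors (ENSMUSG00000000247, chromosome 2, 38339281 to 38369733, plus strand). It had 1439, 1318.5 and 1102 normalized counts in the controls and 1414, 1295 and 1339.5 in the p300-ifKO mice. All p300-ifKO values lay within the control range. Its log2 fold change was 0.069 (SE 0.15, 95% interval -0.22 to 0.35, adjusted p = 0.991, DESeq2).

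Tbr1 encodes a T-box factor of deep-layer cortical neurons (ENSMUSG00000035033, chromosome 2, 61802930 to 61814114, plus strand). It had 999, 897 and 881 normalized counts in the controls and 915, 896 and 1018 in the p300-ifKO mice. The groups overlapped over nearly their whole range, at 926 ± 64.2 and 943 ± 65.8. On the log2 scale the difference was 0.027 (SE 0.13, 95% interval -0.23 to 0.28, adjusted p = 0.991, DESeq2). A list of 9 neocortex and subiculum markers, tissue at the edge of a hippocampal dissection, summed to 5656 to 7259.6 normalized counts in controls and 5535 to 6112 in p300-ifKO mice, and its part in the Tbr1 level was not tested.

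**Figure D2:**
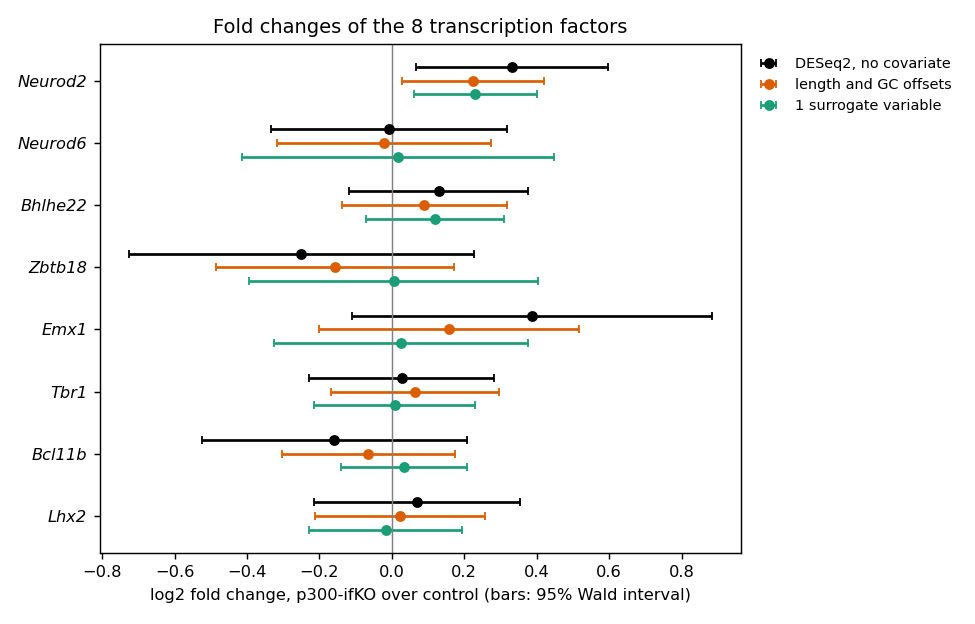
The log2 fold change of p300-ifKO over control (x axis) for each of the 8 genes, as a point with its 95% Wald interval, in the DESeq2 fit with no covariate (black), with offsets for exonic length and GC content (orange) and with 1 surrogate variable (green). Only the 3 Neurod2 intervals lie above 0, and the values of Zbtb18, Emx1 and Bcl11b lie nearer to 0 with a surrogate variable than without.

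The intervals say how large a change in whole hippocampus these 6 mice could have missed. They do not bound the change in the recombined neurons alone. For 8 of 8 genes the 95% interval lay inside a 2-fold change in either direction in the fit to all 6 libraries. Without p300-ifKO replicate 2, Emx1 differed by 0.57 (SE 0.23), and that interval passed a 2-fold increase. So did the Emx1 intervals without p300-ifKO replicate 3, at 0.46 (SE 0.31), and without control replicate 2, at 0.45 (SE 0.31). The counts below are also from the fit to all 6 libraries. A 1.5-fold decrease lay outside the interval for 7 genes and inside it for Zbtb18. A 1.5-fold increase lay outside it for 6 genes and inside it for Neurod2 and Emx1. For 5 genes the interval lay inside a 1.5-fold change in both directions.

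Levels of different genes were compared as TPM, counts divided by exonic length and scaled to add up to 1000000 per library. The mean over the 6 libraries was highest for Neurod6 at 375 ± 54.4 TPM, followed by Zbtb18 at 226 ± 58.6 and Neurod2 at 158 ± 17.8. Bhlhe22 had 95.6 ± 8.16 TPM, Bcl11b 61.4 ± 12.4 and Lhx2 45.0 ± 3.59. Tbr1 at 25.6 ± 2.10 and Emx1 at 17.4 ± 3.70 were lowest. The 2 NEUROD genes and Zbtb18 were among the most abundant mRNAs, at percentiles 97.0 to 99.1 of the genes tested, and Emx1 was at percentile 75.6. The 6 values of neighbours in this order overlapped for Zbtb18 and Neurod2, for Bcl11b and Lhx2, and for Tbr1 and Emx1, and did not overlap for the other neighbours. All 3 overlaps came about through p300-ifKO replicate 1, where Zbtb18 was 116 TPM, Bcl11b 39.9 and Emx1 24.7.

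**Figure D3:**
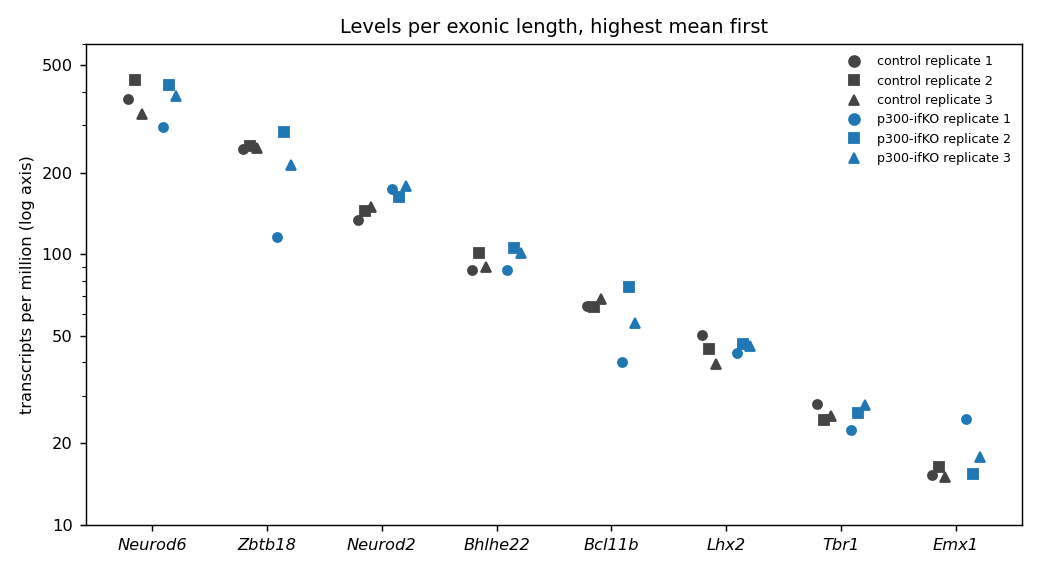
TPM (y axis, log scale) of the 8 genes in each library, ordered by their mean from left to right, with controls in grey and p300-ifKO mice in blue. Neurod6 is highest in all 6 libraries, from 297 to 440.0 TPM, and the order of neighbours is broken only in p300-ifKO replicate 1.

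The library of p300-ifKO replicate 1 stood apart from the other 5 over all genes. The median size of its log2 deviation from the mean of the others was 0.37 over 17054 genes, against 0.097 to 0.20 in the other libraries. These deviations ran with exonic length, with a Spearman rho of -0.51 in p300-ifKO replicate 1, 0.42 in p300-ifKO replicate 2, -0.28 in p300-ifKO replicate 3, and 0.16 to 0.41 in controls. The log2 fold change between groups had a rho of -0.44 with length and 0.29 with GC content. These rho values are taken over genes that share libraries and serve as a description.

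Among the 8 genes, 2 long genes and 2 shorter ones deviated in opposite directions. In p300-ifKO replicate 1 the long Zbtb18 (6138 bases of exon) deviated by -0.91 and Bcl11b (8111 bases) by -0.52 on the log2 scale. The shorter Neurod2 (3142 bases) deviated by 0.37 and Emx1 (2184 bases) by 0.82. Length did not order all of them: Neurod6, the shortest at 2150 bases, deviated by -0.20, and Tbr1, at 5486 bases, by -0.033. Emx1 also had the highest GC content of the 8 (66.8%) and Neurod6 the lowest (41.9%). Replicate 1 was the library farthest from the others for 4 of 8 genes and for 69.2% of genes with a mean normalized count of at least 100. The part of length and GC content in the differences between groups was not tested beyond the fit with offsets.

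**Figure D4:**
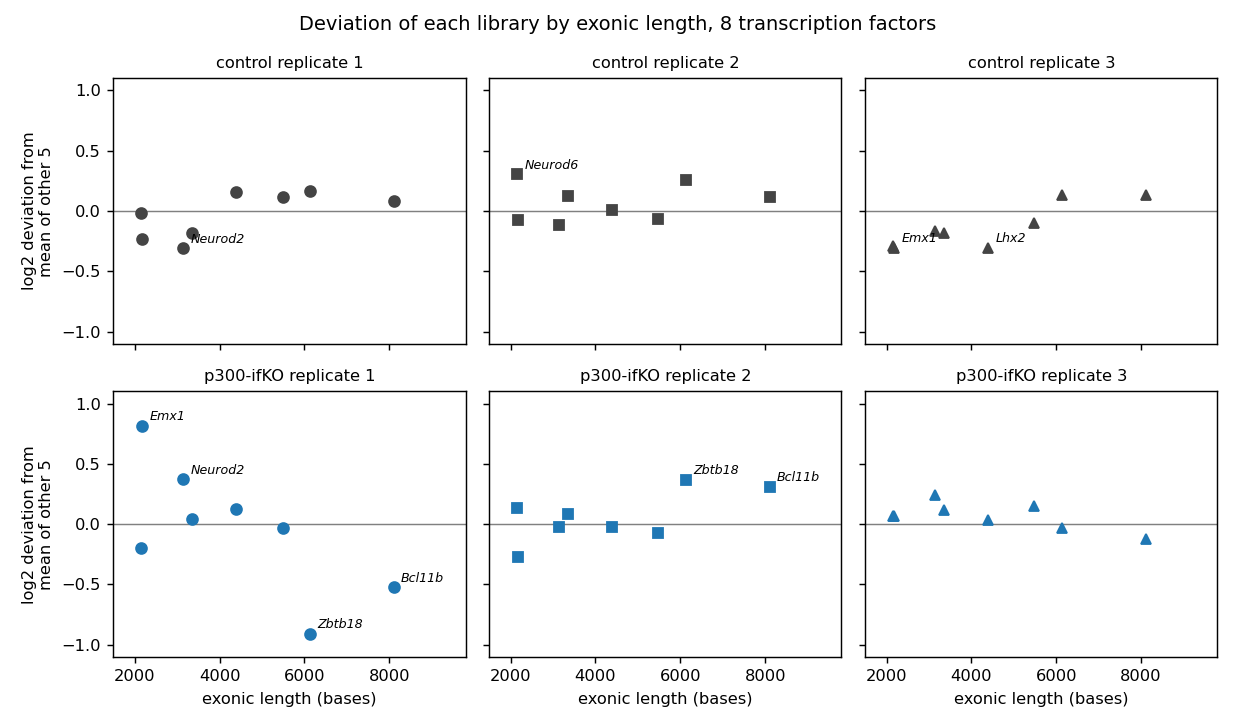
Log2 deviation of each library from the mean of the other 5 (y axis) against exonic length in bases (x axis), 1 panel per library and 1 point per gene, with names where the deviation exceeds 0.3 in either direction. The deviations of p300-ifKO replicate 1 run from 0.82 for Emx1 down to -0.91 for Zbtb18, a wider range than in any other library.

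Across the 6 libraries the 8 genes did not move as a unit. The log2 counts of Zbtb18 and Bcl11b had a Pearson r of 0.97, and those of Neurod2 and Emx1 0.84. Emx1 ran opposite to both, at -0.96 with Zbtb18 and -0.96 with Bcl11b. Without p300-ifKO replicate 1 the pair of Zbtb18 and Bcl11b stayed at 0.94 over 5 libraries, and the pair of Zbtb18 and Emx1 went to -0.59. The pair of Emx1 and Bcl11b was then at -0.80, and that of Neurod2 and Emx1 at 0.72. These points share libraries and their length trend, and they are given as a description. The mean standardized level of the 8 genes was lowest in control replicate 3 and highest in p300-ifKO replicate 3. Among 12244 other genes with a mean normalized count of at least 100, Uba2, a subunit of the SUMO activating enzyme, followed this mean most closely (r = 0.995 over 6 libraries). Zfp938 (0.989), the urea transporter gene Slc14a1 (0.986), the small GTPase gene Rab11a (0.978) and Ggnbp2 (0.973) came next. The top of a search over 12244 genes with 6 libraries has high r values by selection alone. These genes are therefore given only as a description, and a link to the 8 genes was not tested.

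Beyond the 8 genes, 35 other transcription factors of excitatory neurons lay mostly below 0, and 0 of 35 passed at an unadjusted p under 0.05. In p300-ifKO mice 6 were higher and 29 lower, and their median log2 fold change was -0.18, against -0.046 for all genes tested. Their median exonic length was 8625 bases, against 3868.5 for the 8 genes and 2402 for all genes tested. With length and GC offsets their median was -0.071, against 0.027 for all genes. With 1 surrogate variable it was -0.016, against -0.012 for all genes. It was -0.063 without p300-ifKO replicate 1 and -0.33 without replicate 2, against -0.014 and -0.061 for all genes. Whether the list differed from the 8 genes was not tested.

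Named factors of this list lay on both sides of 0. Neurod1, the NEUROD gene of dentate granule cells, differed by -0.091 (SE 0.18), and Emx2, the paralog of Emx1, by -0.018 (SE 0.17). Prox1, the dentate granule cell factor, differed by -0.24 (SE 0.20). Eomes, a factor of intermediate progenitors, was near the detection limit at 4.46 ± 2.23 and 8.05 ± 4.69 normalized counts, with a difference of 0.84 (SE 0.87). The lowest value was that of Zbtb20, a regulator of hippocampal identity, at 5411 ± 1414 and 3986 ± 1418 normalized counts and a log2 fold change of -0.44 (SE 0.28).

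The smallest p-values in this list belonged to Nr2f2, an orphan nuclear receptor (-0.32), Nfix, a nuclear factor I protein (-0.34), and Mef2c, an activity-dependent factor (-0.21), all with adjusted p = 0.991 (DESeq2). The groups did not overlap for 1 of the 35, Mef2c, where 6.64% of all genes tested did not overlap and 3.42% were lower in this way. Its values were 3438, 3069.9 and 3350.2 in controls and 2497, 3068 and 2948 in p300-ifKO mice. With offsets it differed by 0.056. Without p300-ifKO replicate 2, 5 of the 35 were called lower, Nfix, Zbtb20, Myt1l, Etv1 and Zeb2, in a fit that called 4% of 11129 genes as lower. In that fit Neurod2 was the 1 call among the 8 genes and was higher. With length and GC offsets Nfix differed by -0.31, Zbtb20 by -0.17, Myt1l by -0.17, Etv1 by -0.070 and Zeb2 by 0.014.

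Of 20 genes that carry out glutamatergic function, 9 were higher and 11 lower, from -0.36 to 0.29 with a median of -0.0091, and 0 had an unadjusted p under 0.05. Slc17a7 differed by 0.074 (SE 0.12), Slc17a6, the other vesicular glutamate transporter, by -0.069 (SE 0.29), and Nrgn, the postsynaptic neurogranin gene, by 0.20 (SE 0.21). The smallest p-values were those of the kinase gene Camk4 (-0.35, SE 0.18) and the NMDA receptor gene Grin2b (-0.36, SE 0.25). Without p300-ifKO replicate 2, Grin2b (adjusted p = 0.0247) and the AMPA receptor gene Gria2 (adjusted p = 0.0480) were called lower (DESeq2). That fit called 4% of 11129 genes as lower. With length and GC offsets Grin2b differed by -0.13 and Gria2 by 0.030.

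The transcription factors of interneurons, cells in which the driver is not active, were 4 higher and 10 lower of 14, with a median of -0.087 and 0 with an unadjusted p under 0.05. Dlx1 differed by -0.072 and Lhx6 by -0.10. Transcription factors of non-neuronal cells were 14 higher and 7 lower of 21, with a median of 0.043, which was -0.059 with offsets. Of these, 2 had an unadjusted p under 0.05, both higher: Sox18 of endothelium (0.50, SE 0.24) and Nkx6-2 of oligodendrocytes (0.56, SE 0.27), each with adjusted p = 0.991 (DESeq2), where 0.772% of all genes tested were called as higher at that unadjusted p. Olig2 differed by 0.0057, Sox10 by 0.18, Sox9 by -0.19 and Spi1 by 0.043.

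**Figure D5:**
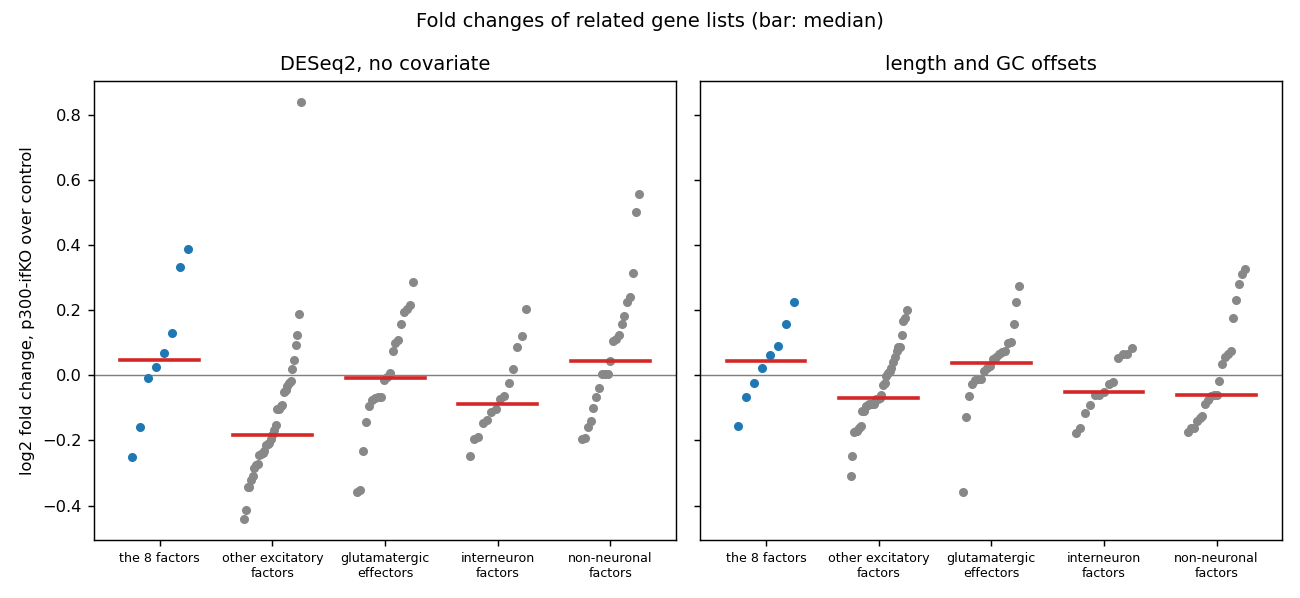
Log2 fold change of p300-ifKO over control (y axis) of single genes (points) in 5 lists, with the median as a red bar, from the fit with no covariate (left) and with offsets for exonic length and GC content (right, which leaves out genes under its count filter). The list of other excitatory factors has a median of -0.18 on the left and -0.071 on the right, and the 8 factors have 0.048 and 0.043.

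The makeup of the tissue was read from marker genes, and 0 genes of these lists were at 0 in any library. The 8 CA1 markers summed to 23599.6 to 26709 normalized counts in controls and 20819 to 23263 in p300-ifKO mice, and the 8 dentate granule cell markers to 10043 to 11847 and 10169.5 to 10561. The 9 astrocyte markers summed to 134673 to 137369 and 122819 to 130420, and the 9 microglia markers to 10024.0 to 10960.1 and 10916 to 13923.5. The sums for CA1 and astrocyte markers were thus lower in all 3 p300-ifKO mice, while those of dentate granule cells and microglia overlapped. A sum gives most weight to the most abundant genes of its list. By gene, the median log2 fold change was -0.14 for CA1 markers and -0.036 for astrocyte markers, against -0.046 for all genes tested. Groups without overlap, lower in p300-ifKO mice, were found for 1 of 8 CA1 markers, 1 of 9 astrocyte markers and 3.42% of all genes tested. The 10 interneuron markers, with Gad1 at -0.14 (SE 0.11), summed to 29900.1 to 33241 and 28132 to 35323. The 8 identity factors themselves summed to 24769 to 27977.5 in controls and 21399.7 to 28537 in p300-ifKO mice. The part of tissue makeup in the values of the 8 genes was not tested.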

How the data were processed

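The authors trimmed single-end reads of 50 bp with Trim Galore (version 0.6.4), aligned them with STAR (version 2.6.1) to GRCm38 (mm10), kept reads with a mapping quality above 10 and counted reads on exons of Ensembl release 99 genes with Rsubread. The strand setting is not given in the sources used here, so overlapping antisense genes are uncertain. The deposited table held raw counts per gene and exonic lengths. The quality limit drops reads that match several places. Of the exonic stretches of 50 bases, 0 of Neurod2, Neurod6, Bhlhe22, Emx1 and Lhx2 occur in other genes, and 5 of Zbtb18, 8 of Tbr1 and 22 of Bcl11b do. Symbols and coordinates came from GENCODE M21 on the same build (55144 of 55471 identifiers, 99.41%).

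Groups came from the sample titles. The members and lists were chosen with earlier results of these data known. DESeq2 (version 1.42.0, R 4.3.3) was fitted to all genes with size factors by median of ratios and no covariate, as a two-sided Wald test with Benjamini-Hochberg adjustment over all genes tested, at a threshold of 0.05. Normalized counts are counts divided by size factors, and intervals are 95% Wald intervals. Named genes were the 8 members, Ep300, Crebbp, Esr1 and Arsi, set genes of each list, and the 3 (other excitatory factors) or 2 (other lists) smallest p-values where a list is described, plus the 5 genes most like the members' mean. Some genes of these lists are not reported here by name. Genes called without p300-ifKO replicate 2 were named after their values were seen. Alternatives were edgeR (4.0.16) quasi-likelihood tests, limma-voom (3.58.1), TMM factors, count filters (at least 10 counts in 3 libraries), other filtering and threshold settings, 1 surrogate variable (sva 3.50.0), length and GC offsets (smooth fits, mgcv 1.9.3), a replicate block and each library left out. The DESeq2 fit with no covariate was tested on simulated counts that held no length trend, and the alternatives were not tested in this way. Replicates were checked for identity, and no pair agreed within sampling noise. Same-numbered mice had correlations of deviations of 0.27, -0.28 and 0.13, so the numbers were not taken as pairs. Deviations were computed for genes with a mean normalized count of at least 10, on log2(normalized count + 1).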

Additional observations from a re-analysis of the deposited data

How the results depend on the processing

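Under 17 alternatives, 122 of 136 log2 fold changes of the 8 genes kept their direction and their side of the threshold, 13 changed sign and 1 passed it. The count of genes past the threshold was 2 as reported, 4 with the replicate block (Igha and Igkc added, named after their values were seen), 3 with the surrogate variable (Ep300 added), and 2 to 938 with a library left out, the highest without p300-ifKO replicate 2, which shared 1 gene with the 2 reported. Only that library's absence called one of the 8: Neurod2 ranged from 0.26 to 0.42 with a library left out. The block changed no call among the 8 genes. Neurod6 changed sign at 0.0079 with limma-voom, 0.0027 with TMM factors and with edgeR without a filter, 0.00079 with the replicate block and 0.017 with the surrogate variable. With that variable Zbtb18 was 0.0053, Bcl11b 0.033 and Lhx2 -0.018. With a library left out, Neurod6 ranged from -0.12 to 0.13, Bhlhe22 from 0.087 to 0.22, Lhx2 from -0.028 to 0.16 and Tbr1 from -0.032 to 0.087. Of the lists, 315 medians stayed within the replicate spread and 8 moved. With offsets the medians were -0.059 for non-neuronal transcription factors, -0.00066 for endothelium markers and 0.058 for thalamus markers, and endothelium markers were at 0.0027 with the surrogate variable. With a library left out, medians ranged from -0.0085 to 0.16 for non-neuronal factors, -0.060 to 0.33 for CA2, -0.19 to -0.0053 for endothelium, and -0.24 to 0.073 for neocortex and subiculum markers. The control level of Zbtb18 was 242 as TMM-scaled CPM per kilobase, against 248 TPM. The causes were not tested.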

Other observations

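Marker lists of other cells of the hippocampus gave medians on both sides of 0 in p300-ifKO mice. Oligodendrocyte markers were higher for 7 of 8 genes (median log2 fold change 0.19), microglia markers for 7 of 9 (0.26) and choroid plexus markers for 6 of 7 (0.34). With 1 library left out these medians ranged from 0.042 (without p300-ifKO replicate 1) to 0.34 (without control replicate 3) for oligodendrocytes and from 0.10 to 0.36 (without p300-ifKO replicates 1 and 2) for microglia. For choroid plexus they ranged from -0.33 (without p300-ifKO replicate 3) to 1.06 (without control replicate 3). Markers of oligodendrocyte precursors were lower for 4 of 5 genes (-0.25), those of CA1 for 6 of 8 (-0.14) and those of dentate granule cells for 7 of 8 (-0.11). These ranged from -0.43 to -0.14 (without p300-ifKO replicates 2 and 1), from -0.17 to -0.072 (without control replicates 2 and 1) and from -0.18 to -0.045 (without control replicates 1 and 2). The medians were -0.054 for CA3, 0.041 for CA2, -0.057 for interneuron, -0.036 for astrocyte, -0.16 for endothelium, -0.031 for neocortex and subiculum, -0.19 for striatum and -0.075 for thalamus markers. With length and GC offsets the oligodendrocyte, microglia and choroid plexus medians were 0.15, 0.13 and 0.27, against 0.027 for all genes. The precursor, CA1 and dentate granule cell medians were then -0.16, -0.12 and -0.035. With 1 surrogate variable these medians were, in that order, 0.070, 0.073, 0.67, -0.083, -0.096 and -0.11, against -0.012 for all genes. Of the 104 genes in these lists, 0 had an adjusted p under 0.05 by DESeq2, edgeR or limma-voom. At an unadjusted p under 0.05 in DESeq2, 5 of the 104 were called, where 1.32% of all genes tested were. Of these 5, 2 microglia markers were higher, and 1 CA1, 1 CA3 and 1 astrocyte marker were lower. Without p300-ifKO replicate 2, 9 of the 104 were called, in a fit that called 8.43% of genes. Choroid plexus markers, a tissue that borders the hippocampus, summed to 754 to 3824 normalized counts in controls and 1410.2 to 5520.2 in p300-ifKO mice, the widest relative range of the lists.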
